A study of Jaculus jaculus and Mus musculus with 24 samples.

Results

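The 10 genes described here are markers of cartilage and bone other than the collagens: Sox9, Acan, Cnmd, Chad, Matn1, Runx2, Sp7, Alpl, Ibsp and Spp1. They were taken by symbol, as known markers of the skeletal tissue that lies beside muscle in a foot, and they are 10 of the 17641 features in the count tables. The counts come from RNA of hindfoot muscle and of the flexor digitorum superficialis (FDS), a finger flexor of the forelimb, in the jerboa Jaculus jaculus and in the mouse. The jerboa is a bipedal desert rodent whose intrinsic foot muscles disappear after birth. In both species the foot material was taken out of sections of the foot and the FDS was dissected, so sampling differed between limbs throughout. The 8 groups of 3 libraries each were jerboa foot, jerboa forelimb, mouse foot and mouse forelimb, each sampled on the day of birth (P0) and 3 days later (P3). The labels call the treatment of all of them normal and name no strain, sex or genotype. Nothing in them tells separate animals from repeat preparations of 1 animal, so a p-value measures only the spread between these libraries, which may be technical.

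Cartilage cells are specified by the transcription factor SOX9 and fill their matrix with aggrecan (Acan), which binds water, and with smaller adhesive and linker proteins such as chondroadherin (Chad) and matrilin 1 (Matn1). Chondromodulin (Cnmd) is a cartilage glycoprotein that keeps blood vessels out and is a relative of tenomodulin, the tendon marker. Bone-forming cells depend on RUNX2 and then on osterix (Sp7), make tissue-nonspecific alkaline phosphatase (Alpl), which frees phosphate for mineral, and secrete the acidic phosphoproteins bone sialoprotein (Ibsp) and osteopontin (Spp1). None of these genes is strictly confined to the skeleton: aggrecan and chondroadherin are also made in tendon, and osteopontin is also made by macrophages and regenerating muscle.

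Totals ran from 16.7 to 54.7 M reads per library, the lowest in jerboa foot at P0 (16.7 to 18.9 M), and libraries of a group correlated with r of 0.984 to 0.996 on the log2 scale over the genes tested. The labelled tissue was borne out by its markers: 11 skeletal muscle genes summed to between 34300 and 97921 CPM (reads per library size after TMM scaling) in every library. Of the 11, 10 were lower in foot than in forelimb in each of the 4 group pairs. Of all genes, 29.3% and 25.3% were lower in mouse at P0 and P3, and 34.8% and 32.1% in jerboa. The remaining gene, Myh3, was higher in foot in mouse at P3 (means of 5031 and 1764 CPM) and did not pass the test in the other pairs. In bulk RNA, fewer cells of a type and less RNA per cell cannot be told apart. Jerboa reads were deposited under mouse transcript names, so levels are compared between limbs and ages of 1 species and never between species. All comparisons used edgeR's quasi-likelihood test over 14448 genes with Benjamini-Hochberg adjustment and a threshold of 0.05, and all 10 genes passed the filter on low counts. A change is given as log2 fold change ± SE, foot over forelimb or P3 over P0.

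The summed level of the 10 genes was higher in foot than in forelimb in both species. The shares given next are of CPM and are not corrected for gene length. In mouse foot, Chad and Acan held most of the sum at both ages, with means of 39.8% and 30.3% at P0. In jerboa foot, Acan alone held 70.9% at P0 and 62.7% at P3, and Chad held 0.474% and 0.210%. The summed level of Sox9, Acan, Cnmd, Chad and Matn1 was 60.1 to 81.7 CPM in mouse foot at P0 and 18.2 to 25.9 CPM in mouse forelimb, and at P3 it was 76.0 to 93.7 against 26.2 to 35.5. In jerboa it was 73.7 to 95.3 CPM in foot at P0 against 11.7 to 13.3 in forelimb, and 102 to 116 against 13 to 15.2 at P3. These ranges did not overlap between limbs in any pair. The summed level of Runx2, Sp7, Alpl, Ibsp and Spp1 separated the limbs in 3 of the 4 pairs. It was 19.3 to 21.6 against 3.08 to 3.46 CPM in mouse at P0, 5.18 to 6.99 against 3.41 to 4.65 in mouse at P3, and 41.4 to 63.9 against 10.5 to 15.0 in jerboa at P3. In jerboa at P0 the ranges, 17.4 to 32.0 and 15.1 to 18.5 CPM, overlapped. The jerboa sums of these 5 genes were almost wholly Spp1. Its means were 22.3 CPM in foot and 15.8 in forelimb at P0, and 52.4 and 12.2 at P3. The others of the 5 had means of at most 0.790 CPM in any jerboa group.

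**Figure D1:**
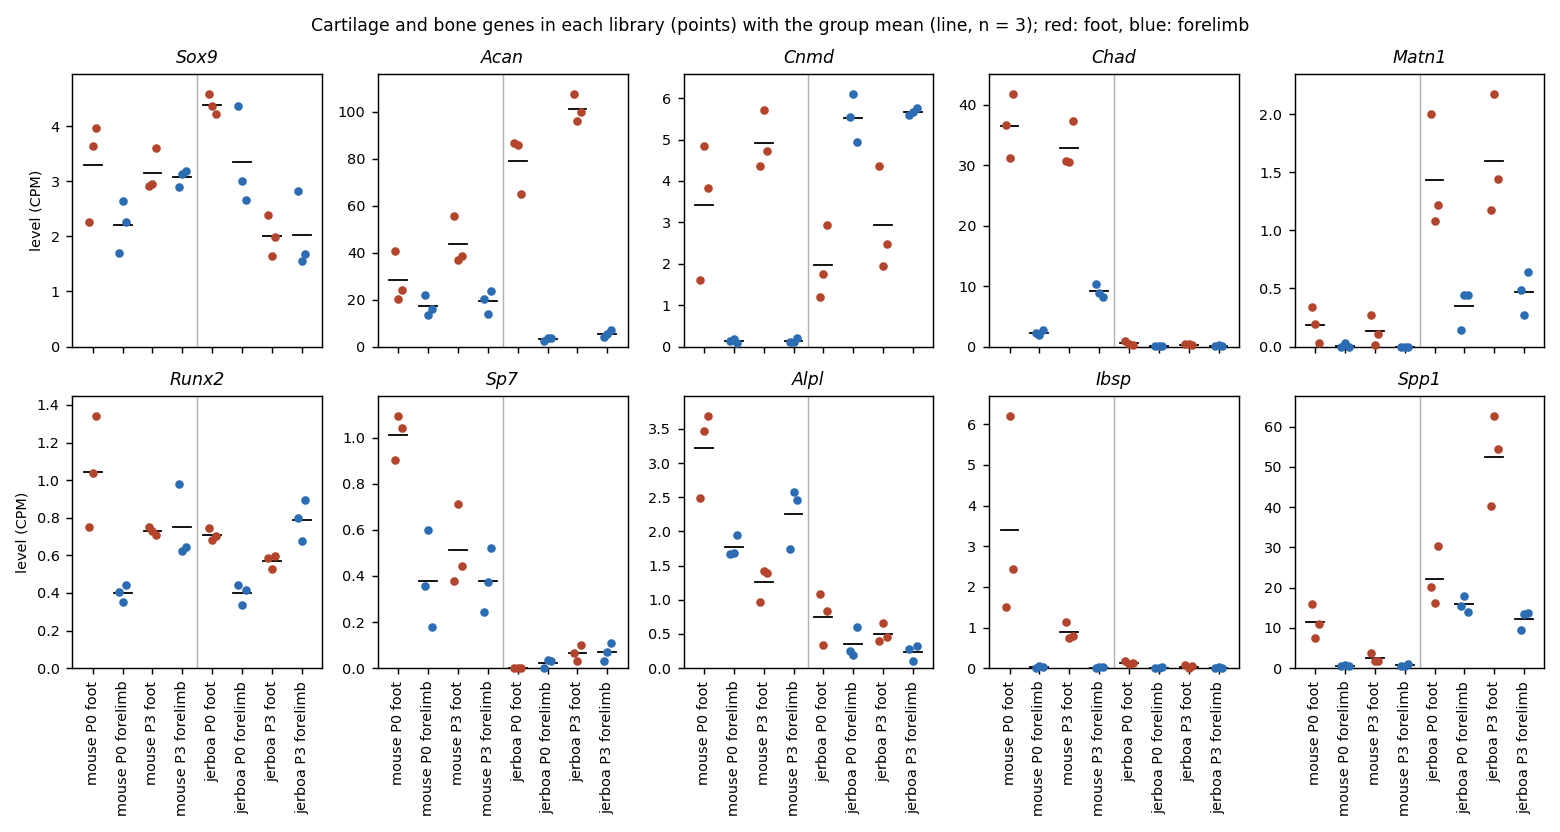
Level of each of the 10 genes (CPM, linear axes from 0 that differ between panels) in the 24 libraries, by species, age and limb; points are libraries, lines are group means, and foot is red and forelimb blue. Chad separated foot (30.6 to 41.7 CPM) from forelimb (1.91 to 10.4 CPM) in mouse, Acan separated them in jerboa, and Sp7 and Ibsp were near or at 0 in all 4 jerboa groups.

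In mouse at P0, 10 of the 10 genes were higher in foot than in forelimb and 0 were lower, where 29.8% of all genes tested were higher and 59.0% changed in either direction. The median log2 fold change of the 10 was 2.71, beside 0.01 for all genes. Foot lay above forelimb with no overlap of libraries for 8 of them, against 61.3% of all genes not overlapping in either direction; Sox9 and Acan overlapped. At P3, 6 were higher and 1 was lower, with 27.3% and 25.3% of all genes as background, and the median was 1.47. In jerboa at P0, 5 were higher and 1 lower (background 31.2% and 34.8%), with a median of 0.94. In jerboa at P3, 4 were higher and 1 lower (background 35.9% and 32.1%), with a median of 1.14. Over all genes tested, 52.5% changed in either direction in mouse at P3, 65.9% in jerboa at P0 and 67.9% in jerboa at P3. In mouse at P3, foot lay above forelimb without overlap for 6 genes and below for 1, where 67.9% of all genes did not overlap. In jerboa it lay above for 5 and below for 1 at P0 (66.3% of all genes), and above for 4 and below for 2 at P3 (70.9%). These counts and medians include genes with 3 reads or fewer in 1 of the groups, whose fitted folds are not bounds: Matn1 and Ibsp in mouse, Sp7 and Ibsp in jerboa at P0 and Ibsp in jerboa at P3. Over the genes left, 8 of 8 changed in mouse at P0, 5 of 8 in mouse at P3, 6 of 8 in jerboa at P0 and 5 of 9 in jerboa at P3. Their medians were 1.41, 0.80, 0.94 and 1.10. Without P3 foot library 2 the jerboa P3 count was 3.

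Sox9, the regulator of the cartilage fate, was low in all 8 groups, with means of 2.01 to 4.39 CPM. In mouse it was at 2.26, 3.64 and 3.96 CPM in foot at P0 and at 1.69, 2.64 and 2.26 CPM in forelimb. The 2 sets overlapped, and the difference of 0.59 ± 0.23 (adjusted p = 0.030) was past the threshold in 10 of 15 alternatives (adjusted p 0.0051 to 0.16). It was lost without mouse P0 foot library 2 (adjusted p = 0.10) or 3 (0.15), without forelimb library 1 (0.16) or 3 (0.055), and in a fit of only the libraries compared (0.062). At P3 the mouse groups stood at 3.15 ± 0.397 and 3.07 ± 0.150 CPM (SD, n = 3), a difference of 0.04 ± 0.22 (adjusted p = 0.90). In jerboa, foot and forelimb did not differ past the threshold at P0 (0.40 ± 0.24, adjusted p = 0.14) or at P3 (-0.02 ± 0.25, adjusted p = 0.96). At P0 the difference passed it without forelimb library 1, at 0.64 (adjusted p = 0.032; 0.032 to 0.41 over 15 alternatives). Sox9 was lower at P3 than at P0 in both jerboa tissues. In foot it went from 4.58, 4.37 and 4.22 CPM to 2.38, 1.64 and 1.99, a change of -1.13 ± 0.25 (adjusted p = 6.4e-04) with no overlap. In forelimb it went from 4.36, 3.01 and 2.65 CPM to 2.83, 1.56 and 1.68, which overlapped, a change of -0.71 ± 0.24 (adjusted p = 0.020). That forelimb change did not pass the threshold without P0 library 1 (-0.47, adjusted p = 0.15), P3 library 2 (-0.55, 0.10) or P3 library 3 (-0.59, 0.089), in a range of 0.0026 to 0.15 over 15 alternatives.

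Acan, which encodes the main proteoglycan of cartilage, was the gene of the 10 that differed most between the jerboa limbs. In jerboa foot at P0 it stood at 86.6, 85.8 and 65.1 CPM, and in forelimb at 2.49, 3.64 and 3.60 CPM. At P3 foot was at 108, 96.3 and 100.1 CPM and forelimb at 4.02, 5.57 and 6.90 CPM. Every foot library was far above every forelimb library, by 4.60 ± 0.28 (adjusted p = 4.6e-13) at P0 and 4.21 ± 0.26 (adjusted p = 4.9e-13) at P3. In mouse foot Acan was at 40.9, 20.3 and 24.1 CPM at P0 against 21.9, 13.4 and 16.1 CPM in forelimb, and at 55.6, 36.8 and 38.7 CPM at P3 against 20.3, 14.1 and 23.9. The mouse libraries overlapped at P0 (0.72 ± 0.23, adjusted p = 0.0084) and did not at P3 (1.16 ± 0.22, adjusted p = 8.9e-05). The P0 difference fell to 0.37 (adjusted p = 0.15) without foot library 1 and to 0.57 (adjusted p = 0.054) without forelimb library 2, in a range of 0.00034 to 0.15 over 15 alternatives. Acan was also higher at P3 than at P0 in mouse foot, by 0.62 ± 0.22 (adjusted p = 0.017). That change was past the threshold in 11 of 15 alternatives (adjusted p 0.00044 to 0.13). It was 0.43 (0.12) without P0 foot library 2, 0.52 (0.082) without library 3, 0.42 (0.13) without P3 foot library 1 and 0.62 (0.053) with only the libraries compared, and it rose to 0.98 without P0 foot library 1.

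Cnmd, which encodes the vessel-repelling chondromodulin, was higher in foot in mouse and higher in forelimb in jerboa. Mouse foot held 1.62, 4.84 and 3.83 CPM at P0 and 4.36, 5.71 and 4.72 CPM at P3. Mouse forelimb held 0.143, 0.191 and 0.0886 CPM at P0 and 0.102, 0.104 and 0.198 CPM at P3, close to the level that 3 reads would give. The foot excess was 4.62 ± 0.44 (adjusted p = 3.5e-09) at P0 and 5.14 ± 0.41 (adjusted p = 2.3e-10) at P3. Jerboa forelimb held 5.53, 6.10 and 4.94 CPM at P0 and 5.59, 5.67 and 5.76 CPM at P3, against 1.20, 1.76 and 2.94 and then 4.37, 1.94 and 2.49 CPM in foot. Each jerboa forelimb library was above each foot library of its age, with a foot difference of -1.50 ± 0.33 (adjusted p = 2.8e-04) at P0 and -0.94 ± 0.29 (adjusted p = 0.0064) at P3. Without P3 foot library 2 the latter was -0.70 (adjusted p = 0.055; 0.00061 to 0.055 over 15 alternatives).

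Chad, which encodes the integrin-binding chondroadherin, was higher in foot than in forelimb in mouse at both ages. At P0 mouse foot held 36.6, 31.1 and 41.7 CPM and forelimb 2.22, 1.91 and 2.77 CPM. At P3 foot held 30.6, 30.6 and 37.3 CPM and forelimb 10.4, 8.86 and 8.24 CPM. No libraries overlapped, and the foot excess was 3.98 ± 0.18 (adjusted p = 7.7e-15) at P0 and 1.84 ± 0.15 (adjusted p = 4.8e-10) at P3. The narrower gap at P3 came with a rise in forelimb of 1.98 ± 0.18 (adjusted p = 2.3e-09). In jerboa Chad was at 28 reads over the 3 P0 foot libraries and 8 over the P0 forelimb libraries, and at 29 and 14 reads at P3. Jerboa foot held 0.916, 0.511 and 0.192 CPM at P0, each above the forelimb libraries at 0.147, 0.112 and 0.0298 CPM, a difference of 2.55 ± 0.63 (adjusted p = 9.9e-04). The P3 difference was 1.17 ± 0.56 (adjusted p = 0.066). It passed the threshold in DESeq2 (1.19, adjusted p = 0.024), without foot library 3 (1.37, 0.041) and without forelimb library 2 (1.59, 0.043), in a range of 0.024 to 0.26 over 12 alternatives.

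Matn1, which encodes a linker of cartilage matrix fibres, was scarce. Mouse foot had 17 reads at P0 and 16 at P3 over 3 libraries, and mouse forelimb had 1 and 0. By library, foot had 9, 7 and 1 reads at P0 and 10, 1 and 5 at P3. At P0, foot library 3 and forelimb library 2 each had 1 read (0.0336 and 0.0272 CPM). The lack of overlap of Matn1 at P0 thus rests on library size for that pair. The counting ratio at P0 was 22.6 (95% interval 3.55 to 947), or 14.9 (2.0 to 663) without foot library 1. At P3 foot was at least 5.89-fold higher, against 3 reads over the forelimb group, and at least 3.02-fold without foot library 1 or 9.28-fold without foot library 2. Both mouse differences passed the test (adjusted p = 0.0074 and 0.0059). In jerboa foot Matn1 was at 2.0, 1.08 and 1.21 CPM at P0 and at 1.17, 2.17 and 1.44 CPM at P3. Jerboa forelimb was at 0.147, 0.446 and 0.447 CPM at P0 and at 0.491, 0.271 and 0.644 CPM at P3, below every foot library. The foot excess was 2.02 ± 0.52 (adjusted p = 0.0017) at P0 and 1.77 ± 0.47 (adjusted p = 0.0021) at P3.

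Runx2, the first regulator of the bone lineage, was higher in foot than in forelimb at P0 in both species and did not differ past the threshold at P3 in either. Mouse foot was at 0.752, 1.04 and 1.34 CPM at P0 against 0.406, 0.354 and 0.443 CPM in forelimb, without overlap (1.37 ± 0.26, adjusted p = 6.0e-05). Jerboa foot was at 0.744, 0.681 and 0.703 CPM at P0 against 0.440, 0.335 and 0.417 CPM in forelimb, also without overlap (0.83 ± 0.31, adjusted p = 0.025). The jerboa difference did not pass the threshold without P0 foot library 1 (0.79, adjusted p = 0.070) or forelimb library 2 (0.72, adjusted p = 0.074), in a range of 0.013 to 0.082 over 14 alternatives. At P3 the differences were -0.03 ± 0.23 in mouse (adjusted p = 0.92) and -0.47 ± 0.27 in jerboa (adjusted p = 0.13). Though the jerboa difference at P3 did not pass the test, its libraries did not overlap. Foot was at 0.526 to 0.598 CPM, below forelimb at 0.679 to 0.894. Between P0 and P3 Runx2 rose in the forelimb of both species, from a mean of 0.401 to 0.750 CPM in mouse (0.89 ± 0.25, adjusted p = 0.0049) and from 0.397 to 0.790 CPM in jerboa (0.98 ± 0.28, adjusted p = 0.0066). The mouse rise was 0.65 without P3 forelimb library 1 (adjusted p = 0.052; 0.0040 to 0.052 over 14 alternatives).

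Sp7, which acts after Runx2 in bone-forming cells, was higher in foot than in forelimb in mouse at P0. Mouse foot at P0 held 0.903, 1.09 and 1.04 CPM and mouse forelimb 0.358, 0.599 and 0.177 CPM, with no overlap (1.45 ± 0.37, adjusted p = 0.0017). At P3 mouse foot held 0.377, 0.713 and 0.443 CPM and forelimb 0.245, 0.374 and 0.521 CPM, which overlapped (0.44 ± 0.37, adjusted p = 0.32). The decline in mouse foot was -0.96 ± 0.35 (adjusted p = 0.022). It was past the threshold in 9 of 14 alternatives (adjusted p 0.011 to 0.090), and was not in DESeq2 (0.075) or without P0 foot library 2 (0.069) or 3 (0.053) or P3 foot library 1 (0.090) or 3 (0.081). The jerboa groups had 0 and 2 reads in foot and forelimb at P0 and 5 and 6 reads at P3, which is too few for a fold.

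Alpl, the phosphatase of mineralizing cells, changed sides in mouse. Foot was higher at P0, at 2.48, 3.48 and 3.69 CPM against 1.67, 1.69 and 1.95 (0.86 ± 0.27, adjusted p = 0.0081). Foot was lower at P3, at 0.968, 1.43 and 1.40 CPM against 1.74, 2.57 and 2.46 (-0.82 ± 0.27, adjusted p = 0.014). Neither pair overlapped, and the fall within foot was -1.34 ± 0.28 (adjusted p = 2.1e-04). The P3 difference was -0.68 without foot library 1 (adjusted p = 0.071) and -0.72 without forelimb library 2 (adjusted p = 0.060), in a range of 0.0012 to 0.071 over 14 alternatives. In jerboa Alpl rested on 21 to 41 reads a group. Foot held 1.09, 0.341 and 0.831 CPM at P0 against 0.257, 0.186 and 0.596 in forelimb, which overlapped, and 0.391, 0.658 and 0.448 CPM at P3 against 0.276, 0.102 and 0.322, which did not. The foot excess was 1.05 ± 0.45 at P0 (adjusted p = 0.043) and 1.10 ± 0.48 at P3 (adjusted p = 0.047), past the threshold in 7 and in 5 of 14 alternatives. At P0 it was 0.67 (adjusted p = 0.28) without foot library 1, 0.98 (0.10) without foot library 3, 0.87 (0.13) without forelimb library 1, 0.77 (0.16) without forelimb library 2 and 1.74 without forelimb library 3. At P3 it was 0.82 (adjusted p = 0.21) without foot library 2, 1.16 (0.058) without foot library 3, 1.25 (0.060) without forelimb library 1 and 0.75 (0.20) without forelimb library 2.

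Ibsp, which encodes a nucleator of bone mineral, was found almost wholly in foot in the mouse counts. The 3 mouse foot libraries held 1.50, 6.21 and 2.45 CPM at P0, with library 2 well above the others, and 1.13, 0.749 and 0.797 CPM at P3. Over 3 libraries this was 340 reads against 3 in forelimb at P0, a counting ratio of 151 (51.2 to 736), or 82.7 (27.6 to 407) without foot library 2, which held 227 of the reads, and 120 against 2 at P3, a ratio of 66.3 (17.9 to 553). Both differences passed the test (adjusted p = 1.4e-09 and 6.9e-07). Jerboa foot had 7 reads at P0 and 3 at P3, and jerboa forelimb had 1 at each age. The jerboa P0 ratio was 12.1 (1.56 to 546) and did not pass the test (adjusted p = 0.057). Within mouse foot Ibsp fell by 1.96 ± 0.37 on the log2 scale from P0 to P3 (adjusted p = 8.6e-05), and by 1.16 without P0 foot library 2 (adjusted p = 0.0057; 4.3e-06 to 0.0072 over 14 alternatives).

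Spp1, which encodes osteopontin, moved in opposite directions with age in the feet of the 2 species. Mouse foot went from 16.0, 7.50 and 11 CPM at P0 to 3.77, 1.80 and 1.84 CPM at P3 (-2.24 ± 0.29, adjusted p = 5.1e-07). Jerboa foot went from 20.2, 16.3 and 30.3 CPM to 40.2, 62.7 and 54.4 CPM (1.24 ± 0.25, adjusted p = 2.2e-04). The ages did not overlap in either foot. Mouse forelimb stayed low, at 0.644, 0.762 and 0.509 CPM at P0 and 0.449, 0.602 and 1.01 CPM at P3, so that foot was higher by 4.16 ± 0.36 (adjusted p = 5.7e-10) and then by 1.78 ± 0.38 (adjusted p = 4.0e-04). Jerboa forelimb held 15.5, 18.0 and 14.1 CPM at P0, which overlapped with foot (0.49 ± 0.25, adjusted p = 0.095). That P0 difference passed the threshold without foot library 2 (0.67, adjusted p = 0.036) and with only the libraries compared (0.53, adjusted p = 0.032), in a range of 0.032 to 0.53 over 15 alternatives. At P3 jerboa forelimb held 9.37, 13.5 and 13.7 CPM, below every foot library (2.11 ± 0.25, adjusted p = 6.5e-08).

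**Figure D2:**
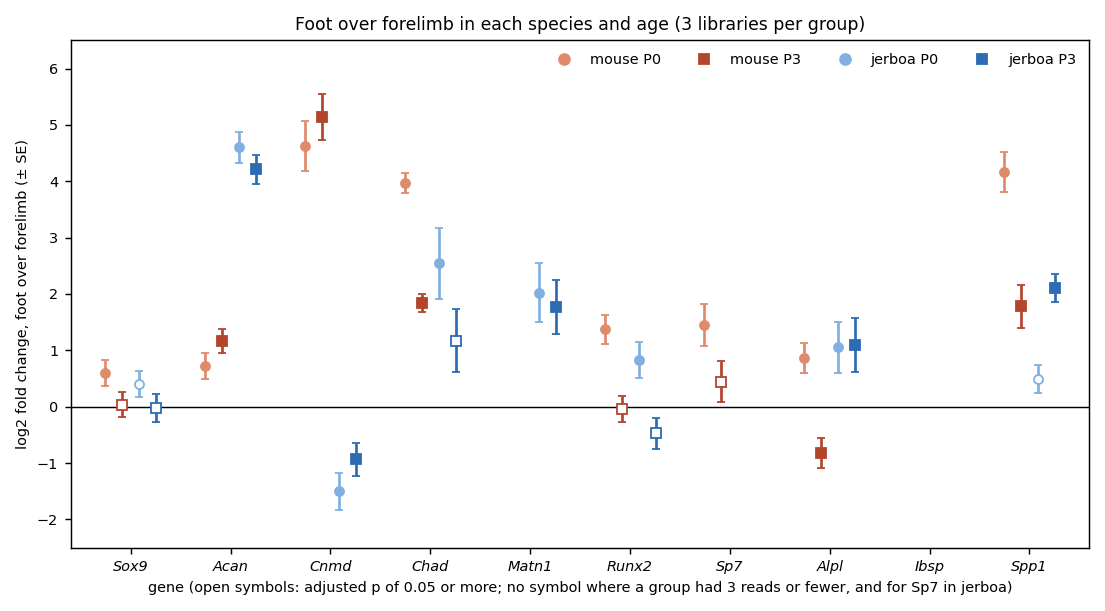
Log2 fold change of foot over forelimb (± SE) of each gene in each species and age, with filled symbols for an adjusted p under 0.05 and no symbol where a group had 3 reads or fewer or for Sp7 in jerboa. Acan stood at 4.60 and 4.21 in jerboa, and Cnmd lay above 0 in mouse (4.62 and 5.14) and below 0 in jerboa (-1.50 and -0.94).

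Whether the foot effect differed between species was tested as the jerboa minus the mouse log2 fold change. These tests, and those of age below, reuse the libraries of the comparisons above. At P0, 3 of the 10 genes differed, 1 higher and 2 lower, where 21.6% and 26.9% of all genes were and 48.6% differed either way; at P3, 2 were higher and 1 lower, where 24.1% and 24.9% were and 49.0% differed either way. The foot excess of Acan was greater in jerboa by 3.88 ± 0.36 at P0 (adjusted p = 5.5e-09) and by 3.05 ± 0.33 at P3 (adjusted p = 5.4e-08). That of Cnmd was lower in jerboa by 6.13 ± 0.56 (-6.13, adjusted p = 4.5e-09) and by 6.07 ± 0.51 (-6.07, adjusted p = 6.9e-10). Spp1 differed at P0 (-3.68 ± 0.45, adjusted p = 4.2e-07) and not past the threshold at P3 (0.33 ± 0.48, adjusted p = 0.61), and Alpl differed at P3 (1.92 ± 0.55, adjusted p = 0.0056). Chad, whose reads were few in jerboa, did not differ past the threshold at P0 (-1.43 ± 0.82, adjusted p = 0.16) or P3 (-0.67 ± 0.64, adjusted p = 0.41). With reads of either strand counted, the Chad difference at P0 was -1.83 (adjusted p = 0.036; 0.036 to 0.50 over 20 alternatives).

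The comparisons of age coincide with a difference in the labels: libraries of P0 are described as trimmed read files and those of P3 as raw ones, so age and read preparation cannot be told apart in the changes within a tissue. In mouse foot 1 of the 10 genes was higher at P3 and 4 were lower, where 29.1% and 28.5% of all genes were and 57.6% changed either way. The 4 that fell, Sp7, Alpl, Ibsp and Spp1, are 4 of the 5 bone genes among the 10. The other, Runx2, did not pass the test (adjusted p = 0.061), and its libraries overlapped between ages. Bone genes outside the 10 did not fall as a set in mouse foot. Of 10 other genes of osteoblasts and osteocytes, 4 were higher at P3 and 3 lower, with a median of 0.13. Of 8 genes of mineral handling, 3 were higher and 2 lower. In mouse forelimb 2 of the 10 members were higher, Chad and Runx2, and 0 lower. Of all genes, 26.0% and 25.4% were (51.4% either way). In jerboa foot 1 was higher and 1 lower, Spp1 and Sox9, where 27.0% and 20.3% were (47.3% either way), and in jerboa forelimb 1 was higher and 1 lower, Runx2 and Sox9, where 22.5% and 20.6% were (43.2% either way). The mouse foot count of 5 was 3 without P0 foot library 3 or P3 foot library 1, and the mouse forelimb count of 2 was 1 without P3 forelimb library 1. The jerboa forelimb count of 2 was 1 without P0 forelimb library 1 or P3 forelimb library 2 or 3. The difference between the foot effect at P3 and at P0 removes a log2 shift that both tissues of an age share. In mouse it was lower for 4 of the 10 genes and higher for 0, where 14.3% of all genes were lower, 17.2% were higher and 31.5% differed either way. These were Chad (-2.13 ± 0.23, adjusted p = 2.9e-07), Runx2 (-1.41 ± 0.35, adjusted p = 0.0030), Alpl (-1.69 ± 0.38, adjusted p = 0.0016) and Spp1 (-2.38 ± 0.57, adjusted p = 0.0026). In jerboa it was lower for Runx2 (-1.30 ± 0.41, adjusted p = 0.021) and higher for Spp1 (1.62 ± 0.36, adjusted p = 0.0014), 2 of 10 where 28.3% of all genes differed (16.2% higher and 12.1% lower). The jerboa Runx2 difference stood at -1.20 without P0 forelimb library 2 (adjusted p = 0.052) and at -1.21 without P3 forelimb library 3 (adjusted p = 0.050), in a range of 0.013 to 0.065 over 20 alternatives, which left 1 call in jerboa.

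Per kilobase of the mouse transcript, which allows genes to be set against each other, the order in mouse foot at P0 was led by Chad at 21.7 ± 3.15 CPM per kb (SD, n = 3), Spp1 at 8.15 ± 3.02 and Acan at 3.87 ± 1.49. The Chad libraries (18.5 to 24.8) lay above those of Spp1 (5.32 to 11.3), and those of Spp1 overlapped with those of Acan (2.76 to 5.56). In mouse forelimb at P0 Acan led instead, at 2.33 ± 0.584 CPM per kb. Of the 10 genes, 9 had a mean of at least 1 CPM in mouse foot at P0, 6 did in mouse foot at P3 and 4 in each mouse forelimb group. Within jerboa, 5 did in each foot group and 4 in each forelimb group. These counts are not compared between species, since jerboa reads were deposited under mouse transcript names.

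On the mouse genome (GRCm38), the transcripts counted for Sox9 and Chad lie on chromosome 11, at 112782224 to 112787760 and at 94565047 to 94569127, both on the plus strand. Matn1 (130944385 to 130955475, plus) and Alpl (137741733 to 137796384, minus) lie on chromosome 4. Acan lies on chromosome 7 (79053483 to 79115099, plus), Cnmd on 14 (79637693 to 79662170, minus), Runx2 on 17 (44604001 to 44814797, minus) and Sp7 on 15 (102356606 to 102366513, minus). Ibsp and Spp1 sit close together on the plus strand of chromosome 5, at 104299171 to 104311469 and 104435118 to 104441050, in a cluster of genes for secreted acidic proteins of bone and tooth. The other genes of that cluster are Dspp (104170712 to 104180127) and Dmp1 (104202613 to 104214102) on one side of Ibsp and Mepe (104325329 to 104338611) between Ibsp and Spp1. Mepe, an osteocyte gene, had 9 reads in mouse foot at P0 and 0 in the other 7 groups, which allows up to 3 reads over each group. Dmp1, which is also made by osteocytes, had 115 reads in foot and 177 in forelimb in mouse at P0 and 190 and 345 at P3, and did not differ past the threshold (adjusted p = 0.61 and 0.090). It had 8 and 2 reads in jerboa at P0 and 16 and 5 at P3.

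Other genes of cartilage and bone, from lists chosen by function, did not move as 1 block. Of 18 other cartilage genes tested, 6 were higher in foot and 3 lower in mouse at P0, 7 and 4 in mouse at P3, and 9 and 4 in jerboa at both ages, where 29.8% and 29.3% of all genes were higher and lower in mouse at P0, 27.3% and 25.3% in mouse at P3, 31.2% and 34.8% in jerboa at P0 and 35.9% and 32.1% in jerboa at P3. Their medians were 0.54, 0.06, 0.93 and 0.98, beside 0.01, 0.03, -0.01 and 0.04 for all genes. The summed level of all 19 genes in the list overlapped between limbs in mouse at P0, at 208 to 226 CPM in foot and 224 to 234 in forelimb. In mouse at P3 it was 284 to 330 against 235 to 260. In jerboa it was 232 to 247 against 105 to 109 at P0 and 255 to 289 against 129 to 139 at P3. Comp, which encodes an abundant matrix protein of cartilage and tendon, was higher in foot throughout, by 0.89 ± 0.19 and 1.66 ± 0.18 in mouse at P0 and P3 and by 3.29 ± 0.20 and 2.79 ± 0.19 in jerboa (highest adjusted p = 3.2e-04). Prg4, the lubricin of joint surfaces and tendon sheaths, was higher by 1.49 ± 0.21, 2.04 ± 0.22, 2.60 ± 0.22 and 1.66 ± 0.21 in the same order. Pth1r, the parathyroid hormone receptor, was higher by 0.28 ± 0.09, 0.58 ± 0.09, 2.25 ± 0.10 and 2.47 ± 0.10. Sox6, a partner of SOX9 that also acts in muscle fibres, was lower in foot throughout, by -1.39 ± 0.09, -0.81 ± 0.09, -1.37 ± 0.12 and -1.46 ± 0.10. Ihh, the signal of growth plate cells, and the cartilage genes Snorc and Ucma had means of at most 0.49, 0.20 and 0.39 CPM in any group.

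Of 10 other genes of osteoblasts and osteocytes, 6 were higher in foot and 1 lower in mouse at P0, 4 and 2 in mouse at P3, 2 and 2 in jerboa at P0 and 4 and 2 in jerboa at P3. Of all genes, 29.8% and 29.3%, 27.3% and 25.3%, 31.2% and 34.8%, and 35.9% and 32.1% were higher and lower in these 4 pairs. Kazald1, a secreted factor of bone-forming cells, was higher in foot in all 4 pairs, by 1.59 ± 0.13, 1.76 ± 0.12, 1.21 ± 0.13 and 1.43 ± 0.12. Smpd3 of the same list was lower in foot in all 4. Its means were 1.64 against 2.70 CPM and 1.72 against 2.94 in mouse, and 1.40 against 5.88 and 1.44 against 5.07 in jerboa. Sparc, the most abundant of the list, was lower in foot in mouse at P3 (means of 2029 and 2410 CPM) and higher in the other pairs. Of 8 genes of mineral handling, 2 were higher and 3 lower in mouse at P0, 4 and 3 in mouse at P3, 0 and 5 in jerboa at P0 and 1 and 6 in jerboa at P3. Phospho1, a phosphatase of mineral vesicles and of muscle, was lower in foot in all 4 (-1.44 ± 0.15, -0.57 ± 0.14, -1.70 ± 0.20 and -1.32 ± 0.20), as was Ank, a pyrophosphate exporter (-0.47 ± 0.09, -0.61 ± 0.08, -0.52 ± 0.09 and -0.32 ± 0.09). Of 10 osteoclast genes, 4 were higher and 3 lower in mouse at P0, 1 and 4 in mouse at P3, 3 and 4 in jerboa at P0 and 3 and 4 in jerboa at P3. Several of these counts lie near the shares of all genes.

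Marker lists of tendon, macrophages and skin were read beside the 10 genes, and their part in the results was not tested. Of 11 tendon markers, 10, 10, 10 and 11 were higher in foot in mouse at P0 and P3 and in jerboa at P0 and P3, where 29.8%, 27.3%, 31.2% and 35.9% of all genes were, and 0 were lower. Their summed level in jerboa was 6711 to 6912 CPM in foot at P0 against 3515 to 3619 in forelimb, and 9635 to 10759 against 3715 to 4460 at P3. In mouse it was 2836 to 3196 against 1857 to 2074, and 3807 to 4212 against 1728 to 2410. Tnmd, the tendon relative of Cnmd, was higher in foot in jerboa at both ages (0.89 ± 0.14 and 1.80 ± 0.15), whereas Cnmd was lower. Skin markers summed to 89.0 to 136 CPM in jerboa foot at P0 and 60.2 to 80.9 at P3, against 16.8 to 28.6 over the jerboa forelimb libraries. Most of that sum was Dsp, a desmosome gene, with means of 86.5 and 48.6 CPM in jerboa foot against 8.96 and 18.7 in forelimb, followed by Trp63 at 15.7 and 14.7 against 2.32 and 2.93. Perp had means of 6.81 and 3.66 CPM in jerboa foot at P0 and P3, against 2.98 and 1.55 in forelimb. Krt1 was at 1.26 and 0.577 against 0.994 and 0.203, and Krt10 at 1.35 and 1.67 against 1.80 and 1.29. Sfn was at 0.903 and 0.456 against 0.329 and 0.154. The keratinocyte genes Krt14, Krt15, Dsg3, Krtdap and Lor had means of at most 0.233 CPM in each jerboa group. Of 8 skin markers tested, 4 at P0 and 5 at P3 were higher in the jerboa foot, and 0 were lower. Of all genes, 31.2% were higher and 34.8% lower in jerboa at P0, and 35.9% and 32.1% at P3. In mouse 3 of the 8 were higher and 2 lower at P0 and 1 higher and 2 lower at P3, with Perp and Dsp lower at both ages. The shares of all genes in mouse were 29.8% higher and 29.3% lower at P0, and 27.3% and 25.3% at P3.

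Macrophage markers, read beside Spp1, summed to less in jerboa foot than in jerboa forelimb at both ages: 173 to 253 against 448 to 465 CPM at P0 and 314 to 321 against 439 to 523 CPM at P3. At P3, when Spp1 was higher in foot, 7 of 13 were lower in foot (32.1% of all genes were), among them Csf1r (-0.98 ± 0.10) and Mrc1 (-1.54 ± 0.12), and 3 were higher (35.9% of all genes), among them Trem2 (2.11 ± 0.28) and Cd68 (1.14 ± 0.11). From P0 to P3, a comparison that coincides with the difference in read preparation, 9 of the 13 rose and 0 fell in jerboa foot, where 27.0% and 20.3% of all genes did, and Spp1 rose. In mouse foot 7 of the 13 rose and 3 fell, where 29.1% and 28.5% of all genes did, and Spp1 fell, and the sum went from 282 to 304 CPM to 357 to 391 CPM.

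**Figure D3:**
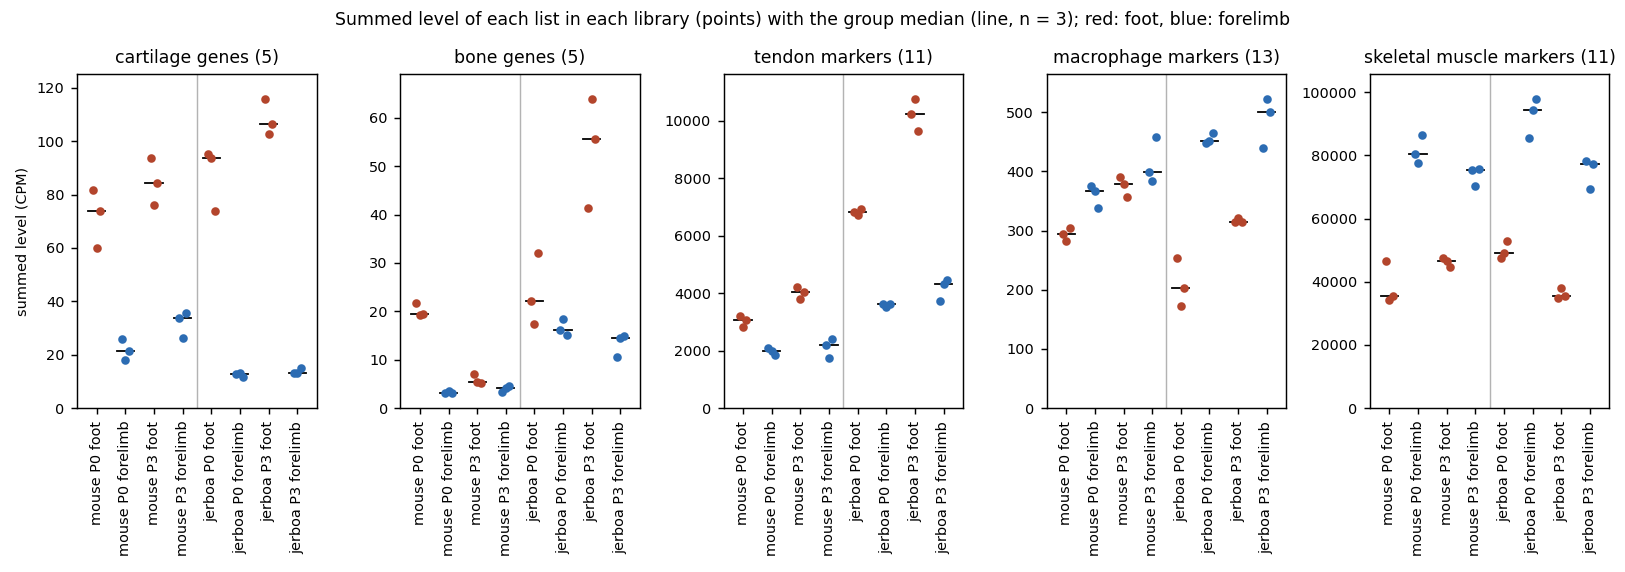
Summed level (CPM, linear axes from 0 that differ between panels) of the 5 cartilage genes, the 5 bone genes and the tendon, macrophage and muscle markers; points are libraries, lines are group medians, and foot is red and forelimb blue. Sums of cartilage genes and of tendon markers lay above forelimb in every foot group, those of muscle markers lay below, and those of macrophage markers overlapped between the limbs only in mouse at P3 (357 to 391 and 383 to 458 CPM).

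Genes whose levels across the 24 libraries were most like each of the 10 were found by Pearson's r of log2 CPM centred within species, among 11515 genes with a mean of at least 1 CPM in each species. The r values are descriptions, since the libraries fall into groups. Acan was most like Cdh11 (r = 0.978), Cnpy2 (0.977) and Tmed3 (0.973). For Cnmd these were Skp2 (0.935), Nell2 (0.923) and Kif26b (0.888), though Nell2 and Kif26b followed it less within jerboa (r = 0.39 and 0.47 over 12 libraries) than within mouse (0.97 and 0.93). Spp1 was most like Hnrnpab (0.936), Eif3b (0.922) and Rbm17 (0.911). The closest gene was Xpo5 for Chad (0.871), Tdp1 for Matn1 (0.872), Aen for Sox9 (0.864) and Ubap1 for Runx2 (0.862). It was Gnb1 for Sp7 (0.812), Hip1r for Alpl (0.805) and Aplp1 for Ibsp (0.922). For Ibsp and Aplp1, r was 0.65 within jerboa and 0.97 within mouse. Sp7 and Ibsp had 0 to 7 reads in each jerboa group, so the jerboa part of their r rests on few reads. Among the 10 themselves, Acan had r of 0.91 with Matn1 and -0.82 with Cnmd over the 12 jerboa libraries. Over the 12 mouse libraries the r of Acan and Cnmd was 0.73, and both were higher in foot than in forelimb. Within each mouse foot group, however, the 2 genes ran in opposite library order. At P0 Acan was at 40.9, 20.3 and 24.1 CPM and Cnmd at 1.62, 4.84 and 3.83. At P3 Acan was at 55.6, 36.8 and 38.7 CPM and Cnmd at 4.36, 5.71 and 4.72. Over the 12 mouse libraries Cnmd had r of 0.93 with Ibsp and 0.86 with Chad.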

How the data were processed

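Total RNA of 8 groups was sequenced, with 3 libraries a group. As deposited, the values are raw counts of reads over 17641 features; both species use Ensembl transcript names of the mouse. The aligner STAR is named in the submitters' processing notes; its version is not stated there, and no source used here gives genome builds or annotation. Reads of 1 strand (the last count column, 98.4% to 99.6% of stranded reads) were used.

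Symbols and positions came from GENCODE M21 (GRCm38), which paired 17529 features with a symbol. Of 118 listed genes, 9 were not used here. The tests were edgeR's quasi-likelihood F tests (version 4.0.16, R 4.3.3, TMM and filterByExpr) in 1 fit of all 24 libraries with a coefficient per group and 16 residual degrees of freedom. Benjamini-Hochberg adjustment ran over 14448 genes. The script was tested on simulated data. Where a group had 1 to 3 reads, a counting ratio with its exact 95% interval is given; where it had 0, the bound is set by 3 reads over the group. Intervals cover counting error only.

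All 10 genes are named with their values. Of other lists, members among the 3 most abundant or called in all 4 limb comparisons were eligible. The skin markers counted, Ihh, Snorc, Ucma and the neighbours of Ibsp and Spp1 are named as well. The 10 genes, the lists and the rules were chosen with earlier results of these data known. Alternatives were scaling by RLE or by the upper quartile, a stricter filter or none, DESeq2 1.42.0, limma 3.58.1 (voom), only the libraries compared, a replicate block, reads of either strand, and each library left out.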

Additional observations from a re-analysis of the deposited data

Results flagged for a closer look

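For 12 values the effect of one contrast differed between species or ages by the interaction test of edgeR. Jerboa minus mouse, the foot effect differed at P0 for Acan (3.88), Cnmd (-6.13) and Spp1 (-3.68), and at P3 for Acan (3.05), Cnmd (-6.07) and Alpl (1.92), all on the log2 scale. The largest of these adjusted p-values was 0.0056, for Alpl. P3 minus P0, the foot effect in mouse differed for Chad (-2.13), Runx2 (-1.41), Alpl (-1.69) and Spp1 (-2.38). In jerboa it differed for Runx2 (-1.30) and Spp1 (1.62). Acan and Cnmd each differed with the same sign at both ages, Runx2 changed with the same sign in both species, and Spp1 changed with opposite signs in them.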

How the results depend on the processing

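No pairing entered the main fit, because same-numbered libraries did not deviate together (correlations of -0.081 to 0.101 within the comparisons of limb or age). Replicate blocks were used only among the alternatives, whose ranges of adjusted p are given above. A replicate block passed 3 genes for jerboa limbs at P0, 4 for jerboa forelimb age and 1 for the jerboa age-by-limb difference, and left Alpl in jerboa (1.16 at P0, 1.07 at P3), Runx2 in jerboa at P0 (0.87) and its age-by-limb difference (-1.35) without a call. The stricter filter kept only 4 of the 10 genes, so counts fell to 4, 3, 2 and 3 for limbs (mouse P0 and P3, jerboa P0 and P3), 2 for mouse foot age, 0 for mouse forelimb age, 1 for jerboa forelimb age and 1 for each age-by-limb difference. Only the libraries compared gave 4 for jerboa forelimb age, and DESeq2 gave 5 for the species difference at P3; the cause was not tested. Leaving out 1 library at a time gave 9 to 9, 6 to 7, 4 to 7 and 3 to 5 genes for limbs, 3 to 6 for mouse foot age, 1 to 3 for mouse forelimb, 2 to 3 for jerboa foot, 1 to 3 for jerboa forelimb, 3 to 3 and 3 to 4 for species differences, and 4 to 5 and 1 to 2 for age-by-limb differences. Single-gene alternatives were kept for 62 results only. These were the limb results, apart from Sp7 and Ibsp in jerboa, and the called results of age and of the differences between effects. The species differences of Chad at both ages and of Spp1 at P3 were added. A fit in which a gene failed the filter gave no alternative for it. Of the 979 alternatives of these results, 919 kept direction and side of the threshold. The 8 that reversed were small and without a call: mouse P3 Runx2 (0.0024 with upper quartile scaling, -0.15 to 0.20 with a library left out), mouse P3 Sox9 (-0.071 to 0.089), jerboa P3 Sox9 (0.0078 with voom, -0.18 to 0.31) and the P3 species difference of Spp1 (-0.078 to 0.73). Other scalings moved the median gene by at most about 0.05. Depth limits Sp7, Ibsp and Chad in jerboa and Matn1 in mouse, where groups hold 0 to 29 reads. It also limits the mouse folds of Cnmd and Ibsp and the species difference of Cnmd. Mouse forelimb held 17 and 21 reads of Cnmd at P0 and P3, and 3 and 2 of Ibsp. Alpl had 21 reads in jerboa forelimb at P3.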
